A study of Mus musculus with 21 samples.

Results

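AP-1 is the collective name for dimers of basic leucine zipper (bZIP) transcription factors, and 10 genes of this class were described here across muscle stem cells of mice: Fos, Fosb, Fosl1, Fosl2, Jun, Junb, Jund, Atf3, Batf3 and Maff. They were taken by symbol from the 19938 genes that the array names through a probeset with a single gene symbol, and each of the 10 had exactly 1 such probeset. Total RNA of satellite cells, the stem cells of skeletal muscle, was measured on 21 Affymetrix mouse whole-transcript arrays made from 12 pools of cells, each from 3 to 4 mice. All values below are log2 array signals, averaged over the arrays of a pool.

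Every animal, wild type (WT) included, carried Pax7CreER/+ and Rosa26REYFP/+ and had received tamoxifen at least 2 weeks earlier, so that cells expressing Pax7 at that time were marked with YFP. The YFP+ cells were sorted from hindlimb muscle of mice aged 3 to 5 months and were lysed without culture. Quiescent satellite cells (QSC) came from uninjured mice, and contralateral satellite cells (CSC) came from the uninjured hindlimb of mice whose other hindlimb had been injured with BaCl2. WT QSC and WT CSC at 2.5 days after injury had 3 pools each. WT CSC at 28 days, TSC1 knockout QSC (TSC1flox/flox), Rptor knockout QSC and CSC at 2.5 days (Rptrflox/flox) and cMet knockout QSC and CSC at 2.5 days (cMetflox/flox) had 1 pool each. The study compared how WT and knockout satellite cells respond to an injury elsewhere in the body. TSC1 is an inhibitor of the mTORC1 kinase complex, Rptor encodes its Raptor subunit, and cMet is the receptor of hepatocyte growth factor. The strain was mixed C57BL6, except for the cMet knockout mice, which were C57BL6 mixed with FVB, so that the cMet genotype and the strain cannot be told apart.

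Fos proteins bind DNA only as partners of Jun proteins, whereas Jun proteins can also pair with each other or with ATF proteins, and the dimers recognise the TPA response element (TRE) or the closely related cAMP response element (CRE). Several of these genes are immediate early genes: MAP kinase signalling induces them within minutes without new protein synthesis, and their messages are short-lived. In satellite cells they are known for their rapid induction by muscle injury and also by the enzymatic dissociation of the tissue that precedes sorting.

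Letters of such elements lay close to the start site of some members, and those stretches are shown because AP-1 dimers can recognise elements of this kind. Of the 10 genes, 9 matched RefSeq start sites of GRCm38.p6, in 11 windows of 250 bases upstream of the start. The CRE core TGACGT was found on either strand in 3 of the 11 windows, against 6.47% of 32851 windows over all genes. The longer CRE or ATF form TGACNTCA was in 3 of the 11, which belong to 2 genes, against 7.49%. The longer form overlaps the core where its variable base is G. The TRE letters TGACTCA, present in 4.46% of all windows, and the CArG box, present in 1.47%, were in none of the 11. Sequence outside these windows was not searched. A match of letters is a description and not a measured binding site. The letters were chosen after these sequences had been read, so the shares over all genes are no test of the members. The last 120 bases before the start site follow, 5′ to 3′ in the direction of transcription, with these matches and the TATA box letters TATAAA (12.4% of all windows) in capitals. They lie at chr12:85473770-85473889 on the plus strand (Fos), chr4:95052223-95052342 on the minus strand (Jun), chr1:191183334-191183453 on the minus strand (Atf3) and chr15:79347400-79347519 on the plus strand (Maff, at the start site listed second of its 3).
Fos: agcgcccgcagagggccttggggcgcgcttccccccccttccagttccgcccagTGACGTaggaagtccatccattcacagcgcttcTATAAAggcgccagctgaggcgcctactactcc
Jun: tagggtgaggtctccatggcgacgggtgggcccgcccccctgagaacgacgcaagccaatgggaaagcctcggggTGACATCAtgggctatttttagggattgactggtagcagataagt
Atf3: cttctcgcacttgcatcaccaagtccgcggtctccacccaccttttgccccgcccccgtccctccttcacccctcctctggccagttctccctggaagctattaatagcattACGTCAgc
Maff: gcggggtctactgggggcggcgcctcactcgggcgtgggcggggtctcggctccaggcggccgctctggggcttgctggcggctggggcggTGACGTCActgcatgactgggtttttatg

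In WT cells, 8 of the 10 AP-1 genes were lower in CSC at 2.5 days after the injury of the other leg than in QSC of uninjured mice, by 1.80-fold (Fosl2) to 2.64-fold (Fos). Fosl1 and Batf3 did not pass the test. None of the 10 was higher. The test was limma's moderated linear model over the 12 pools, with Benjamini-Hochberg adjustment over 13956 genes and a threshold of 0.05. Of all genes tested, 7.36% were called lower and 10.6% higher. The median difference of the 10 genes (CSC minus QSC) was -0.96 on the log2 scale, against -0.05 over all genes. For the same 8 genes, all 3 CSC pools lay below all 3 QSC pools, an arrangement that 19.1% of all genes showed. In these bulk samples, fewer cells of a type and less RNA per cell cannot be told apart.

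**Figure D1:**
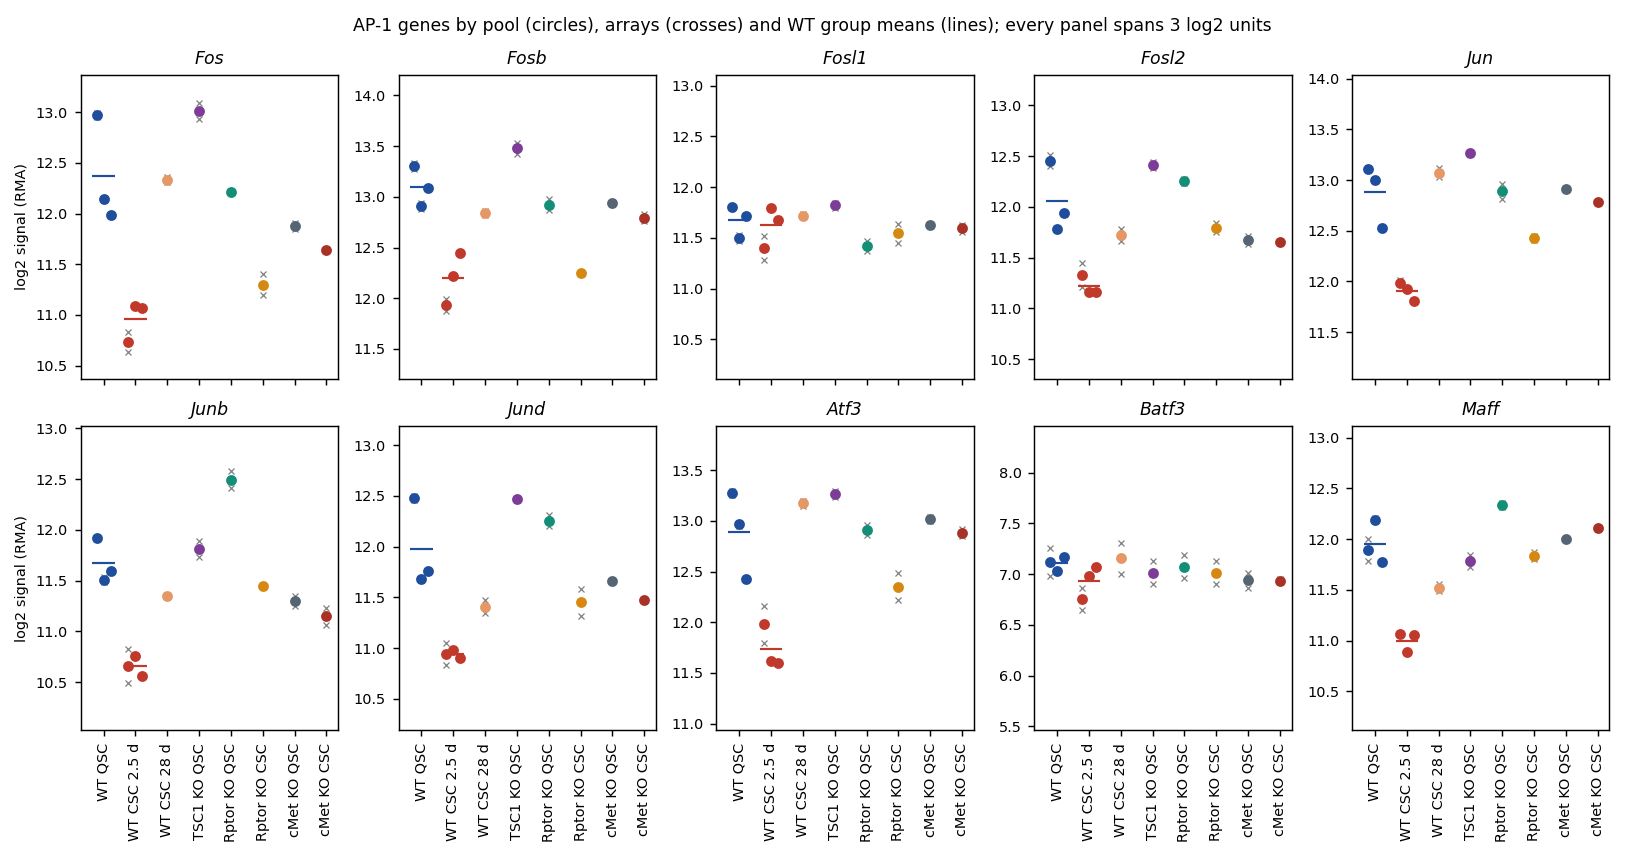
Log2 array signal (y axis) of each of the 10 AP-1 genes in every pool, by group (x axis): circles are pools, crosses single arrays and lines the WT group means. In the 8 genes that fell, the 3 WT CSC pools at 2.5 days lie below the 3 WT QSC pools, whereas those of Fosl1 and Batf3 overlap. Levels of different genes come from different probesets and are not comparable.

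Among the Fos proteins, the partners of Jun proteins in many AP-1 dimers, Fos itself gave 12.97, 12.14 and 11.99 in the 3 WT QSC pools and 10.73, 11.09 and 11.07 in the 3 WT CSC pools. The groups did not overlap, and QSC pool 1 stood above the others. Fos fell by 1.40 ± 0.25 (SE) on the log2 scale (95% confidence interval -1.96 to -0.85, limma adjusted p = 0.00588), and ranked 34 of the 13956 genes by the size of its decrease. Fosb, a close relative of Fos, gave 13.30, 12.91 and 13.09 in QSC and 11.93, 12.22 and 12.45 in CSC. Its highest CSC pool lay below its lowest QSC pool, and the difference was -0.90 ± 0.17 (limma adjusted p = 0.00811). Fosl2, which encodes the Fos-related antigen Fra-2, gave 12.45, 11.78 and 11.94 in QSC and 11.33, 11.16 and 11.16 in CSC. The groups were apart, with a difference of -0.84 ± 0.18 (limma adjusted p = 0.0141), but the call was lost without WT CSC pool 2 (adjusted p = 0.0594) or pool 3 (0.0604). Fosl1, which encodes Fra-1, did not pass the test: its 11.80, 11.50 and 11.72 in QSC overlapped 11.40, 11.79 and 11.68 in CSC. Its difference was -0.05 ± 0.15, with an interval from -0.39 to 0.29 (limma adjusted p = 0.861).

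All 3 genes of the Jun family fell. Jun, which can activate transcription as a homodimer, gave 13.11, 13.00 and 12.53 in QSC and 11.99, 11.93 and 11.81 in CSC. The CSC pools were close together and clear of the QSC pools, at a difference of -0.97 ± 0.17 (limma adjusted p = 0.00579). Junb, often a weaker activator that can restrain Jun, gave 11.92, 11.51 and 11.60 in QSC and 10.66, 10.76 and 10.56 in CSC. Its lowest QSC pool stood well above its highest CSC pool, and the difference was -1.02 ± 0.15, with the smallest adjusted p of the 10 genes (0.00241, limma). Jund, the Jun gene with the most constant expression in many cell types, gave 12.48, 11.68 and 11.76 in QSC and 10.94, 10.98 and 10.90 in CSC. The 3 CSC pools were nearly equal (10.94 ± 0.04, SD, n = 3), the QSC pools were wider (11.98 ± 0.44, SD, n = 3) with pool 1 the highest, and the difference was -1.04 ± 0.20 (limma adjusted p = 0.00983).

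Of the other bZIP members, Atf3, a stress-induced factor that pairs with Jun proteins, gave 13.27, 12.97 and 12.43 in QSC and 11.98, 11.62 and 11.60 in CSC. It fell by 1.15 ± 0.22 on the log2 scale, a 2.23-fold lower signal without overlap of the pools (limma adjusted p = 0.00776). Maff, a small Maf protein without a transactivation domain, gave 11.89, 12.19 and 11.77 in QSC and 11.06, 10.89 and 11.05 in CSC. Here QSC pool 2 was the highest, and the difference was -0.95 ± 0.15 (limma adjusted p = 0.00347). Batf3, which dimerises with Jun proteins and is best known in dendritic cells, gave 7.12, 7.03 and 7.17 in QSC and 6.75, 6.98 and 7.07 in CSC. These values overlapped and lay near the lower limit of 6.45 for testing a gene, with a difference of -0.17 ± 0.13 (limma adjusted p = 0.418).

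**Figure D2:**
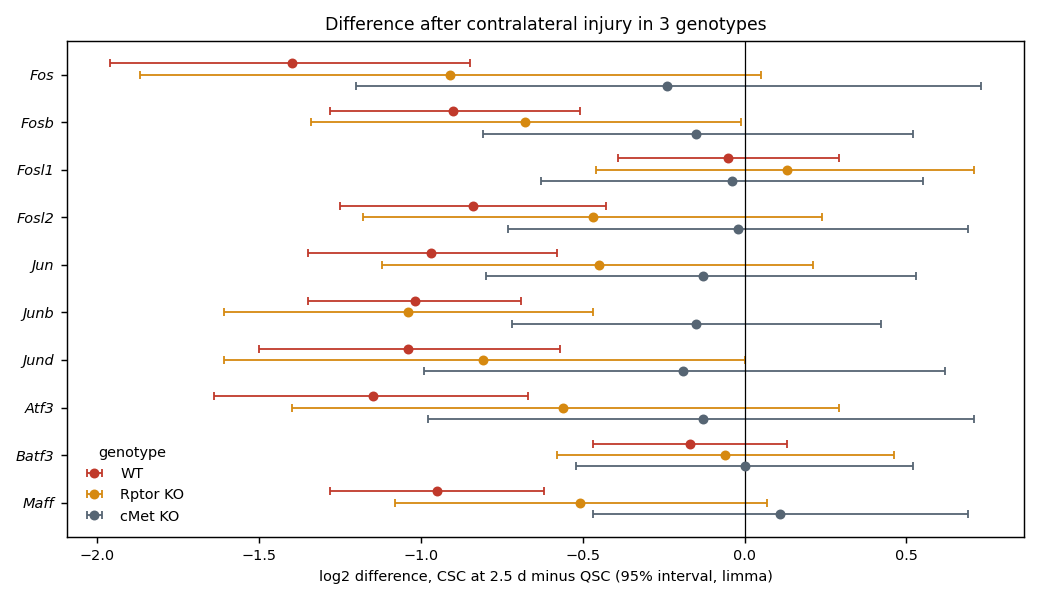
Log2 difference of each AP-1 gene between CSC at 2.5 days and QSC (x axis) in WT, Rptor knockout and cMet knockout cells: points are limma estimates and bars 95% confidence intervals. In WT, the intervals of the 8 genes that fell exclude 0, and those of Fosl1 and Batf3 include it, whereas the cMet knockout estimates lie between -0.24 and 0.11.

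Markers of other cell types moved in the same WT comparison. Of 14 endothelial markers tested, 11 were lower in CSC (pool means of the list 8.70 to 9.34 in QSC and 7.73 to 8.13 in CSC), as were 5 of 10 fibro-adipogenic (9.47 to 9.74 and 8.74 to 9.10) and 6 of 11 pericyte and smooth muscle markers (9.43 or more in every QSC pool and 9.01 to 9.18 in CSC). None of 10 macrophage markers passed the test (6.84 to 7.35 and 7.09 to 7.25), and 4 of 11 muscle fibre markers were higher (7.29 to 8.14 and 8.19 to 8.49). Of 14 satellite cell markers, 5 were lower (11.30 to 11.73 and 10.83 to 10.89). Pax7, the defining satellite cell factor, gave 12.10, 11.30 and 11.09 in QSC and 10.63, 10.36 and 10.27 in CSC, so that pool 1 of QSC was highest for it as for 8 of the 10 AP-1 genes. The part of these markers in the AP-1 differences was not tested. Without QSC pool 1, the same count of 8 AP-1 genes was called. Arrays have no zero, so that no marker can be said to be absent.

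Other genes of the pathway moved in the same direction where they passed the test, by lists assembled with earlier results of these data known. Over all genes, 7.36% were called lower and 10.6% higher, with a median of -0.05. Of 27 further bZIP partners, 7 fell and none rose, with a median of -0.24. They included Cebpd, a C/EBP factor of the acute response (-1.10 ± 0.14, limma adjusted p = 0.00125), and Mafk, a small Maf protein like Maff (-1.07 ± 0.21, 0.00859). Of 20 MAP kinases and other factors that induce AP-1, 5 fell and none rose. The median of this list, -0.06, was near that of all genes, and 12 of the 20 were below 0, as were 56.8% of all genes. Among those that fell were Map3k8, a kinase that activates the ERK cascade (-1.11 ± 0.18, limma adjusted p = 0.00374), and Rps6ka5, the chromatin kinase MSK1 (-0.97 ± 0.18, 0.00674). Of 17 MAP kinase phosphatases and feedback inhibitors, 6 fell and none rose (median -0.23), including Zfp36, which destabilises short-lived messages (-1.17, limma adjusted p = 0.000851), and Dusp1, which inactivates MAP kinases (-0.80, 0.0122).

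Genes that AP-1 is known to activate did not all move one way. Of 21 such targets, 7 fell and 2 rose, with a median of -0.15. The inflammatory genes Ccl2 (-1.29, limma adjusted p = 0.00054) and Il6 (-1.75, 0.0051) and the matrix metalloproteinase Mmp2 (-0.75, 0.0125) fell, whereas Timp1, an inhibitor of metalloproteinases, rose by 1.25 (0.00129). Of 25 immediate early genes outside the AP-1 family, 13 fell and none rose (median -0.64), among them the orphan nuclear receptors Nr4a1 (-1.48, limma adjusted p = 0.00255) and Nr4a3 (-1.40, 0.00241) and the antiproliferative gene Btg2 (-1.42, 0.000693). Of 14 heat shock and stress genes known to respond to tissue dissociation, 9 fell and none rose (median -0.75), such as the chaperone genes Dnajb1 (-1.24, limma adjusted p = 0.000947) and Hsph1 (-0.87, 0.00407). The part of cell isolation in the AP-1 differences was not tested.

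**Figure D3:**
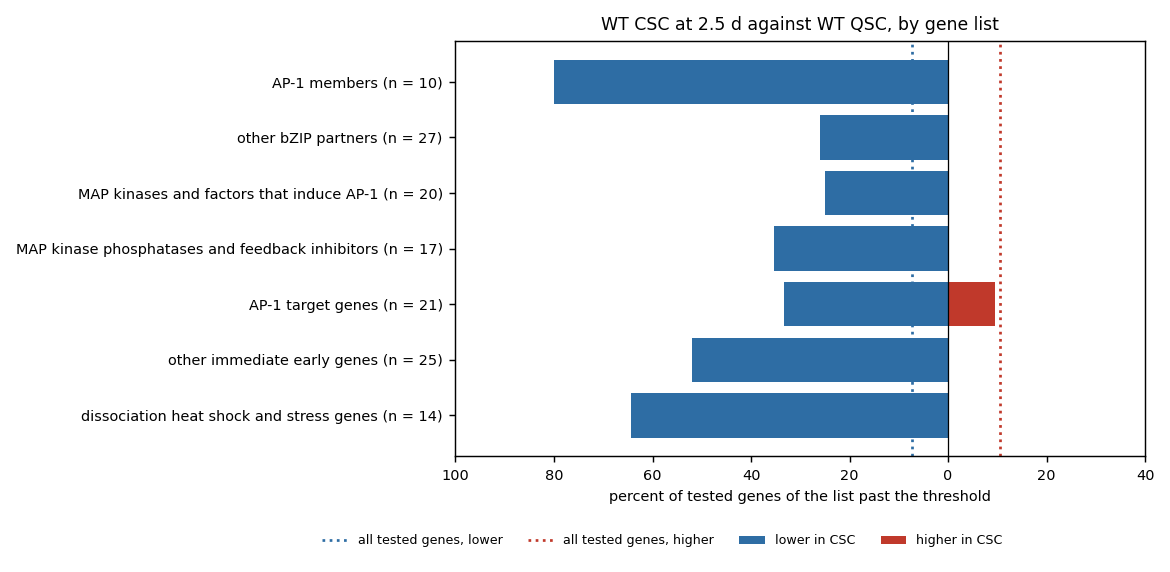
Percent of the tested genes of each list called lower (left of 0) or higher (right of 0) in WT CSC at 2.5 days than in WT QSC; dotted lines mark the shares over all 13956 genes (7.36% lower and 10.6% higher). The 10 AP-1 genes have 8 lower, and the AP-1 target list alone of the 7 has genes on the higher side.

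By day 28 after the injury, the single WT CSC pool had AP-1 values within or below the range of uninjured mice and mostly above those at 2.5 days. The pool gave 12.33 for Fos, 13.07 for Jun and 13.18 for Atf3. For 9 of the 10 genes it lay above all 3 WT CSC pools at 2.5 days, as for 39.8% of all genes, and Fosl1 lay within them. Against 2.5 days, 3 of the 10 were called higher, where 2.06% of all genes were. Fos rose by 1.36 ± 0.35, Jun by 1.16 ± 0.24 and Atf3 by 1.44 ± 0.31 on the log2 scale (limma adjusted p = 0.0453, 0.0213 and 0.0230). The remaining 7 differences ran from 0.10 (Fosl1) to 0.69 (Junb, limma adjusted p = 0.0740). With a single pool, the time point cannot be told apart from that pool, and its p-values borrow the spread between the WT pools. All 3 calls were lost without WT CSC pool 2 (adjusted p = 0.0881, 0.0603 and 0.0672) or pool 3 (0.0967, 0.0734 and 0.0742), and that of Fos also without pool 1 (0.113).

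Against QSC of uninjured mice, the pool of day 28 had no AP-1 gene past the threshold, and none of all genes was called (0%). At an unadjusted limma p under 0.05 there was no AP-1 gene either, against 190 genes higher and 447 lower of all. The differences ran from -0.56 (Jund) to 0.29 (Atf3), all with a limma adjusted p of 0.999. Fosb, Fosl2, Junb, Jund and Maff lay below the range of the 3 QSC pools, where 19.0% of all genes did, and none of the 10 lay above it. The endothelial list had a mean of 8.01 in this pool, within the range of the CSC pools at 2.5 days (7.73 to 8.13), although its member Tek, an endothelial receptor kinase, was higher than at 2.5 days by 1.23 ± 0.21 (limma adjusted p = 0.00961). All other lists but that of neutrophil genes lay outside their own range at 2.5 days: satellite cell markers had a mean of 11.28 (10.83 to 10.89 at 2.5 days), fibro-adipogenic 9.24 (8.74 to 9.10), pericyte and smooth muscle 9.24 (9.01 to 9.18), macrophage 6.67 (7.09 to 7.25) and muscle fibre 7.33 (8.19 to 8.49). The part of these markers in the AP-1 values was not tested. Other immediate early genes had 5 of 25 members higher at 28 than at 2.5 days, and the heat shock and stress list 4 of 14.

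In TSC1 knockout QSC, in which mTORC1 lacks an inhibitor, 4 of the 10 AP-1 genes lay above the range of uninjured WT cells and 1, Batf3, below it. The pool gave 13.01 for Fos, 13.48 for Fosb, 11.82 for Fosl1 and 13.27 for Jun, each above all 3 WT QSC pools, where 30.3% of all genes were. The count of 4 of 10 was near that share, and 23.2% of all genes lay below the 3 WT pools. None of the 10 passed the limma test, nor an unadjusted p under 0.05; of all genes, 0.0143% were called, and 987 were higher and 244 lower at the unadjusted threshold. The largest difference was that of Fos, at 0.64 ± 0.35 (95% confidence interval -0.14 to 1.43, limma adjusted p = 0.612). WT QSC pool 1 was close to the knockout pool, with 12.97 for Fos and 12.48 for Jund against 12.47 in the knockout. Without that WT pool the difference of Fos was 0.94 (limma adjusted p = 0.0746, against 0.0746 to 0.805 over the alternatives). The median of the 10 was 0.36, against 0.04 over all genes.

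Rptor knockout QSC, which lack the Raptor subunit, showed no AP-1 gene past the limma threshold, and 0.122% of all genes were called. Junb had its highest value of all groups there, 12.49, above the 3 WT QSC pools (11.51 to 11.92), at a difference of 0.82 ± 0.21 (95% confidence interval 0.35 to 1.28, limma adjusted p = 0.203). It was the only AP-1 gene with an unadjusted p under 0.05, a threshold that 4.02% of all genes passed upward. With all arrays fitted and the pool as a random block, Junb was called (adjusted p = 0.0376, over a range of 0.0376 to 0.394 in the alternatives). That fit counts the arrays of a pool as separate observations with a shared correlation (0.598), so this call does not rest on more pools. Maff, at 12.34, also lay above the WT pools, with a difference of 0.39 (limma adjusted p = 0.535), and Fosl1, at 11.42, lay below them. Of all genes, 24.9% lay above the WT QSC pools and 26.5% below, so that these counts of the 10 were no more than those over all genes.

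In cMet knockout QSC, Fos (11.88), Fosl2 (11.67), Junb (11.30), Jund (11.66) and Batf3 (6.94) lay below the 3 WT QSC pools, where 8.54% of all genes did. The differences of the 10 genes ran from -0.49 (Fos) to 0.13 (Atf3), each with a limma adjusted p of 1. No gene of the whole array was called (0%), and at an unadjusted p under 0.05 there were 0 AP-1 genes, 163 genes higher and 22 lower. The endothelial (9.40) and fibro-adipogenic (9.94) list means lay above the WT QSC pools (8.70 to 9.34 and 9.47 to 9.74). Satellite cell markers, at 11.30, were at the lower end of the WT range (11.30 to 11.73), and the other marker lists lay within theirs. The part of these markers in the AP-1 values was not tested.

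After injury of the other leg, the 2 knockouts studied at 2.5 days had higher AP-1 values than WT CSC in most members, but few differences passed the test. In Rptor knockout CSC, 7 of the 10 genes lay above all 3 WT CSC pools, where 34.5% of all genes did. None was called, against 0.924% of all genes called higher, and Maff and Junb had an unadjusted p under 0.05, as did 6.31% of all genes upward. Maff gave 11.83 (difference 0.83 ± 0.21, limma adjusted p = 0.0617) and Junb 11.45 (0.79 ± 0.21, 0.0707). Macrophage markers were higher in this pool for 9 of 10 genes tested (list mean 8.85 against 7.09 to 7.25 in WT CSC), and their part in the AP-1 values was not tested.

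In cMet knockout CSC, 8 of the 10 genes lay above all 3 WT CSC pools, where 36.6% of all genes did, and 1 was called higher, where 3.40% of all genes were. This was Maff, at 12.11 against 11.06, 10.89 and 11.05 in WT CSC. The knockout pool was clear of all WT CSC pools, and Maff was higher by 1.11 ± 0.21 (2.15-fold, limma adjusted p = 0.0186), a call that was lost without WT CSC pool 2 (0.0667) or pool 3 (0.0621). Atf3 gave 12.88 (difference 1.15 ± 0.31, limma adjusted p = 0.0565) and Jun 12.78 (0.86 ± 0.24, 0.0645), both above every WT CSC pool. Endothelial markers were higher in this pool for 11 of 14 genes (list mean 9.71 against 7.73 to 8.13), as were 5 of 10 fibro-adipogenic markers, and their part in the AP-1 values was not tested.

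Within each knockout, no AP-1 gene differed past the threshold between CSC at 2.5 days and QSC. From Rptor knockout QSC to CSC, Fos went from 12.21 to 11.30 and Junb from 12.49 to 11.45. Of the 10 genes, 9 had values below 0, where 56.5% of all genes did (median -0.53), none was called, and 3 were lower at an unadjusted limma p under 0.05, where 1.97% of all genes were lower and 3.09% higher; 0.258% of all genes were called, in the upward direction. From cMet knockout QSC to CSC, Fos went from 11.88 to 11.64 and Jun from 12.91 to 12.78. The 10 differences ran from -0.24 (Fos) to 0.11 (Maff), with 0 members and 0% of all genes called, and at an unadjusted p under 0.05 there were 0 members, 68 genes higher and 7 lower.

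The interaction, the response of the knockout minus that of WT, ran from 0.01 (Fosl1) to 1.17 (Fos) in the cMet knockout, above 0 for all 10 genes as for 49.3% of all genes, with a median of 0.84 against 0.00. No AP-1 gene was called by limma, against 0.158% of all genes, while 6 of the 10 were above 0 at an unadjusted p under 0.05, where 3.75% of all genes were above 0 and 5.77% below. Fos had 1.17 ± 0.49 (95% confidence interval 0.05 to 2.28, limma adjusted p = 0.487), Maff 1.06 ± 0.29 (0.39 to 1.72, 0.239) and Atf3 1.02 ± 0.43 (adjusted p = 0.488). Other lists were above 0 in the same interaction, with no gene called higher: endothelial markers in 14 of 14 genes (median 1.34), fibro-adipogenic in 10 of 10 (0.63), heat shock and stress genes in 14 of 14 (0.79) and other immediate early genes in 24 of 25 (0.57). So were satellite cell markers in 12 of 14 (0.43), pericyte and smooth muscle in 10 of 11 (0.61), macrophage in 10 of 10 (0.30) and neutrophil in 3 of 3 (0.56). Muscle fibre markers went the other way, with 9 of 11 below 0 (median -0.62) and 1 called lower. The part of these lists in the AP-1 values was not tested. In the Rptor knockout the interaction ran from -0.03 (Junb) to 0.60 (Atf3), with no AP-1 gene and 0% of all genes called; at an unadjusted p under 0.05 there were 0 AP-1 genes, 214 genes higher and 406 lower. The comparisons with WT CSC share those pools and are not independent of each other.

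**Figure D4:**
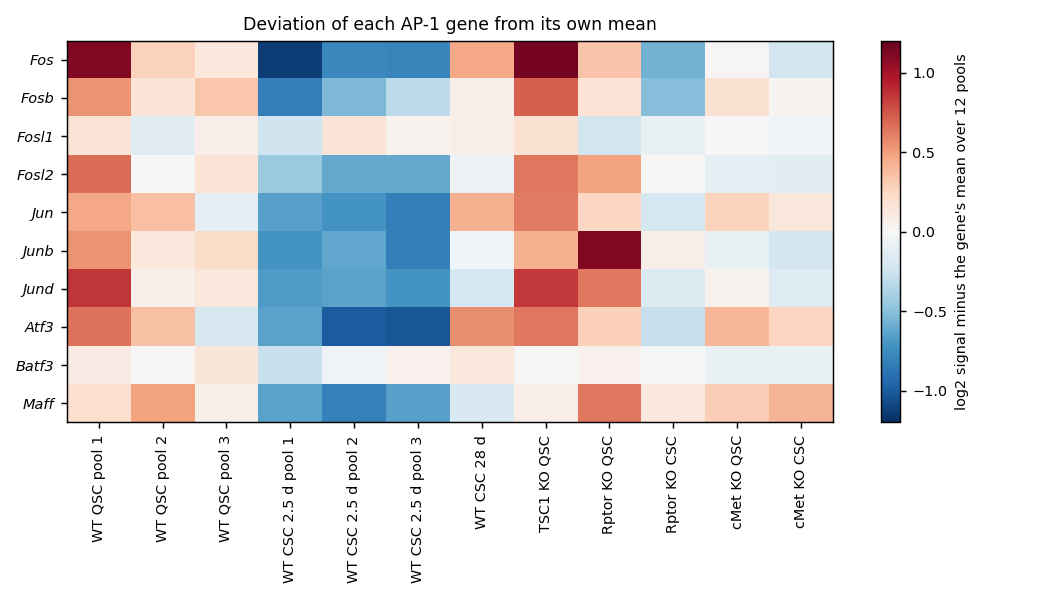
Deviation of each AP-1 gene (rows) in each of the 12 pools (columns) from its own mean over the pools, in log2 units. The 3 WT CSC pools at 2.5 days are the lowest columns, and Fosl1 and Batf3 are nearly flat.

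Over the 8 groups, WT CSC at 2.5 days was the lowest for 8 of the 10 genes, and TSC1 knockout QSC the highest for 7. The shares over all genes were not computed for these orders. A group with a single pool, such as TSC1 knockout QSC, reaches an extreme more easily than a mean of several pools. Rptor knockout QSC was the highest for Junb and Maff, and WT CSC at 28 days for 1, Batf3. Group means spanned 2.04 log2 units for Fos, 1.83 for Junb and 1.53 for Jund, but 0.40 for Fosl1 and 0.22 for Batf3. When the groups were put in order for each gene, 17 of the 70 gaps between neighbours exceeded the pooled SD of the WT pools (0.13 for Batf3 to 0.40 for Fos). The other neighbours in that order did not differ beyond this spread. For Fosl1 and Batf3 no gap did.

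The genes whose pattern over the 12 pools was most like the mean of the 10 AP-1 genes, by Pearson's r, were Tgfbr3, a co-receptor of TGF-beta (r = 0.982), Flrt1 (0.978), the immediate early factor Egr1 (0.977), the ETS factor Ets2 (0.977), the oestrogen receptor Esr1 (0.974), Nr4a1 (0.974), Nr4a3 (0.971) and the cytokine signalling inhibitor Socs3 (0.969). These values describe 12 pools that share the contrast between WT QSC and CSC and were chosen as the highest of all genes tested.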

How the data were processed

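Total RNA of sorted YFP+ cells was hybridised to Affymetrix arrays. The deposited values are log2 signals; the submitters' processing notes name Affymetrix Expression Console and RMA, versions not given in the sources used here. Of 35556 probesets, 21789 had 1 symbol, 1621 several and 12146 none in the platform annotation; a gene was represented by its probeset with the highest mean. Pools are biological replicates per the labels, and arrays of a pool were averaged (9 pools with 2 arrays, 3 with 1; r between them 0.981 to 0.998). Array medians were 7.03 to 7.21, and the number of pools limits the precision.

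limma 3.58.1 (R 4.3.3) was fitted to 8 group means over 12 pools for the 13956 genes with a mean at or above the 30th percentile (log2 6.45), which all 10 AP-1 genes passed, and p-values were adjusted by Benjamini-Hochberg (threshold 0.05). All 4 residual degrees of freedom come from WT QSC and WT CSC, so single pools were assumed to vary like these. The code was tested on simulated data. Each targeted gene has 1 probeset along its transcript, which does not check the genotype: Tsc1 was 8.16 in its knockout against 8.56 in WT QSC, Rptor 9.19 against 9.26, and Met 10.25 against 10.01. Replicate numbers were not used to pair WT QSC and CSC pools in the main fit. Correlations of deviations were 0.319, -0.033 and -0.034 at equal numbers and from -0.306 to 0.317 at unequal numbers. With 3 pools per group, these values cannot exclude a pairing.

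The members and lists were chosen with earlier results of these data known, and the motif letters after the promoter sequences had been read. Named genes were all members, up to 4 genes per list with the lowest adjusted p in the WT comparison, and the 8 most similar genes. Promoters are from RefSeq (GRCm38.p6).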

Additional observations from a re-analysis of the deposited data

How the results depend on the processing

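In 15 alternatives, the WT comparison of CSC at 2.5 days with QSC called 7 to 8 AP-1 genes, 7 without WT CSC pool 2 or 3. Over 41 differences of AP-1 genes, 563 values kept direction and side of the threshold, 14 lost calls, 26 gained calls and 9 changed sign. Other AP-1 differences were not followed. With all arrays and the pool as a random block, 6 genes were called for 28 against 2.5 days, 1 in Rptor knockout QSC against WT QSC, 1 from Rptor knockout QSC to CSC, 2 in Rptor knockout CSC against WT CSC, 4 in cMet knockout CSC against WT CSC and 1 in the cMet interaction. That fit counts the arrays of a pool as separate observations, so its further calls do not rest on more pools. Repeated quantile normalization called 1 in Rptor knockout CSC against WT CSC. In cMet knockout CSC against WT CSC, a trended robust fit called 3, the first array of each pool 2, and the replicate block 3; the block also ended the call of Fos at 28 against 2.5 days (adjusted p = 0.0518). Leaving out 1 WT pool gave 0 to 4 calls for 28 against 2.5 days, 0 to 2 for Rptor knockout CSC and 0 to 3 for cMet knockout CSC against WT CSC. Among the 41, signs turned for 2 uncalled genes: Fosl1 in the WT comparison (0.00 with first arrays, -0.13 to 0.06 with a pool left out), at 28 against 2.5 days (-0.01 to 0.18) and in cMet knockout CSC against WT CSC (-0.14 to 0.05), and Batf3 in the last (0.01 with the random block, -0.09 to 0.07 with a pool left out). The cause was not tested. Single-pool groups limit 11 of the 12 comparisons. The shares over all genes under each alternative are not given here, so a higher count is not by itself a result about the AP-1 genes.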

Other observations

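The 8 AP-1 genes that fell in WT CSC at 2.5 days varied together over the 12 pools, which share that contrast: Pearson's r of their 28 pairs was 0.60 to 0.99, with a median of 0.81. Jun with Atf3 had the highest value (0.99), then Fosl2 with Jund (0.98), and Fos with Maff the lowest (0.60). The 17 pairs that include Fosl1 or Batf3 had r from -0.27 to 0.57, with a median of 0.36. The genes were split by a comparison whose pools are among the 12, so that the higher r of the 28 pairs is not a separate result. The 3 WT QSC pools were themselves uneven: pool 1 was the highest for 8 of the 10 genes, with a median deviation from the group mean of 0.24, against 0.09 over all genes.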
